A study of Mus musculus with 32 samples.

Results

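The chromatin of J1 mouse embryonic stem cells that lacked Taf5l was set directly against that of J1 cells that lacked Taf6l. The comparison used 14 of the 32 samples of the series, 1 library for each of 7 antibodies in each of the 2 knockouts. No wild-type list served as a reference. The antibodies were against the transcription factors Myc and Oct4, against the histone marks H3K9ac and H3K4me3, and against RNA polymerase II in total (RNAP) or phosphorylated at serine 5 (RNAP-ser5) or serine 2 (RNAP-ser2) of its C-terminal repeats. All cells were grown in fetal calf serum with LIF, a cytokine that keeps embryonic stem cells undifferentiated, and fixed with 1% formaldehyde. The groups differed, per the labels, only in genotype, Taf5l KO or Taf6l KO. How the alleles were made and how many clones each knockout represents are not given in the sources used here. A gene annotation of the genome build of the lists (mm9) was not used here, so regions carry positions and no gene names, and the state of the Taf5l and Taf6l genes in these cells was not analysed here.

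TAF5L and TAF6L are subunits of SAGA, a coactivator that activators bring to promoters and whose acetyltransferase module modifies histone H3, including its lysine 9. H3K9ac and H3K4me3 both mark active promoters, although H3K4me3 is written by other enzymes. Oct4 is a core factor of pluripotency that binds largely at enhancers, and Myc binds mainly at promoters already in use. Serine 5 phosphorylation of polymerase II is known from initiating and early elongating polymerase, and serine 2 phosphorylation from polymerase further along the gene body.

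Each library is represented by the authors' list of peaks, places where immunoprecipitated tags exceeded the local background by the authors' peak caller at a q value of 0.05. A peak was called shared when a peak of the other knockout overlapped it by at least 1 bp on chromosomes 1 to 19, and a peak of 1 knockout only otherwise. The strength of a peak is its fold enrichment over local background, a value of the authors that was used here to rank or describe peaks within its own list. Where fold values of both knockouts are given for a place, each belongs to its own list. They were not compared as amounts of binding. With 1 library per antibody and knockout, no difference between the knockouts could be tested. The 95% intervals on shares are exact (Clopper-Pearson). They cover counting error alone and treat neighbouring peaks as independent. All 7 lists of a knockout were called against the same input, which held 6245652 unique tags in Taf5l-KO and 5923469 in Taf6l-KO, so overlaps between antibodies within a knockout share that control. Duplicates were dropped by the caller. The unique tags that were left ran from 5390622 to 22968606 over the Taf5l-KO libraries and from 1702363 to 18739413 over the Taf6l-KO libraries. The shallowest was RNAP-ser5 in Taf6l-KO, where duplicates made up 92.6% of the tags. It held 0.193 of the unique tags of RNAP-ser5 in Taf5l-KO. Its input was scaled down to it, as were the inputs of both RNAP-ser2 libraries, while every other library was scaled down to its input.

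List length differed most for H3K9ac, with only 110 peaks in Taf5l-KO and 880 in Taf6l-KO. The Taf6l-KO list was 8 times as long as the Taf5l-KO list and held nearly all of it. H3K4me3 and total polymerase were largely at the same places in both knockouts. Oct4 and RNAP-ser2 lists held many peaks of both kinds, shared and of 1 knockout only, and most RNAP-ser5 peaks of either knockout had no counterpart. The share of peaks found in the other knockout was the background rate of each comparison. In the Taf5l-KO lists it was 46.9% for Myc, 44.7% for Oct4, 93.6% for H3K9ac and 83.2% for H3K4me3. For polymerase it was 81.6% for RNAP, 26.5% for RNAP-ser5 and 47.1% for RNAP-ser2. In the Taf6l-KO lists it was 63.6% for Myc, 65.9% for Oct4, 11.7% for H3K9ac and 91.4% for H3K4me3. The polymerase lists of Taf6l-KO had 65.3% for RNAP, 39.6% for RNAP-ser5 and 38.6% for RNAP-ser2. Within each antibody the longer list had the lower share.

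**Figure D1:**
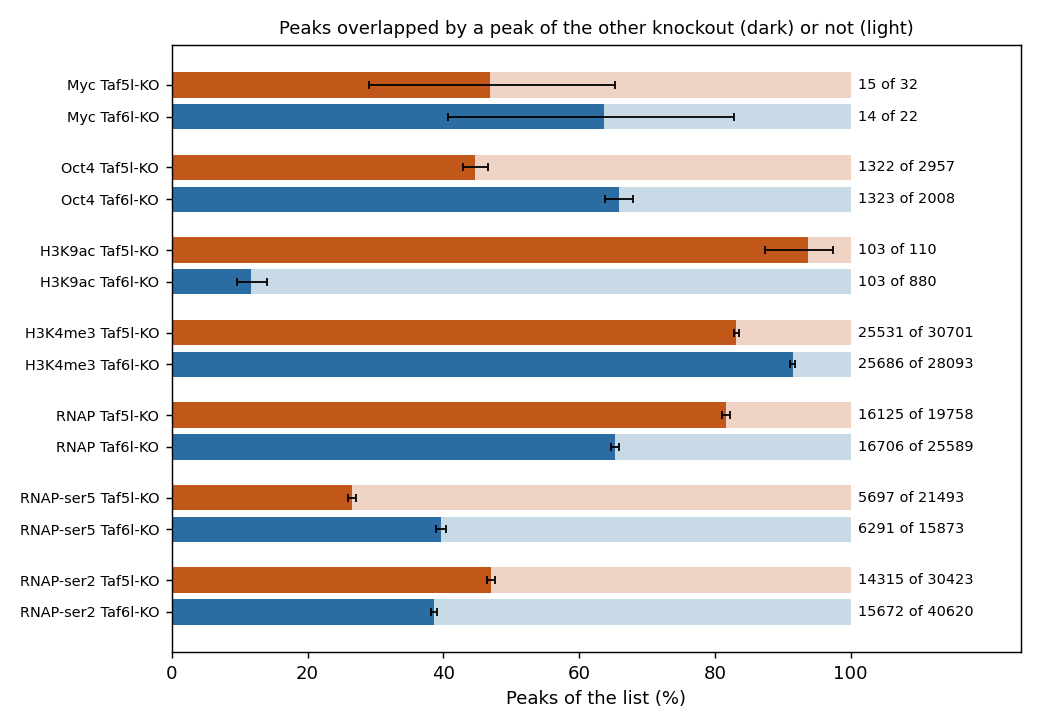
Percent of the peaks in each of the 14 knockout lists that a peak of the other knockout overlapped by at least 1 bp (dark) or that were listed in 1 knockout only (light), with exact 95% binomial intervals and counts at the right. The H3K9ac lists differ most from each other, with 103 of 110 Taf5l-KO peaks and 103 of 880 Taf6l-KO peaks shared.

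Unequal list length was taken out by keeping, for each antibody, as many of the peaks of best q value in both lists as the shorter list had. The shares of the 2 knockouts then lay close together. Lists of equal length must give this when overlapping peaks mostly match in pairs, as they did here. The closeness therefore says nothing about the knockouts, and only the level of each share is informative. The shares were 56.3% and 56.4% for Oct4 (2008 peaks each, Taf5l-KO first) and 42.7% in both for H3K9ac (110 peaks each). H3K4me3 had 87.75% and 88.4% (28093 peaks each). For polymerase they were 74.7% and 76.0% for RNAP (19758 peaks each), 33.7% and 37.4% for RNAP-ser5 (15873 peaks each), and 42.2% and 45.4% for RNAP-ser2 (30423 peaks each). These lengths differ between antibodies, and the order of the antibodies depended on the length. With the 100 peaks of best q value in each Taf5l-KO list set against the 100 best of Taf6l-KO, 31 were shared for H3K4me3, 43 for H3K9ac, 46 for RNAP-ser5, 49 for Oct4, 58 for RNAP and 66 for RNAP-ser2. With 1000, the shares were 49.9% for H3K4me3, 56.1% for Oct4, 57.6% for RNAP, 18.9% for RNAP-ser5 and 30.5% for RNAP-ser2.

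Shared peaks had the higher median fold enrichment in each of the 14 lists, though 7 peaks alone were unshared in the H3K9ac list of Taf5l-KO. In 12 of the lists, all but those of Myc, strength could be followed in 10 groups of equal size. The share in the weakest 10% ran from 0% (H3K9ac in Taf6l-KO) to 100% (H3K9ac in Taf5l-KO). In the strongest 10% it ran from 43.2% to 100%. The rise was not monotonic in every list. In the RNAP-ser5 list of Taf5l-KO the weakest 10% was shared more often, at 24.6% (22.8 to 26.5), than the next 10%, at 12.3%. The RNAP-ser2 list of Taf5l-KO had the same dip, from 35.8% (34.1 to 37.6) to 26.8% (25.2 to 28.4).

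**Figure D2:**
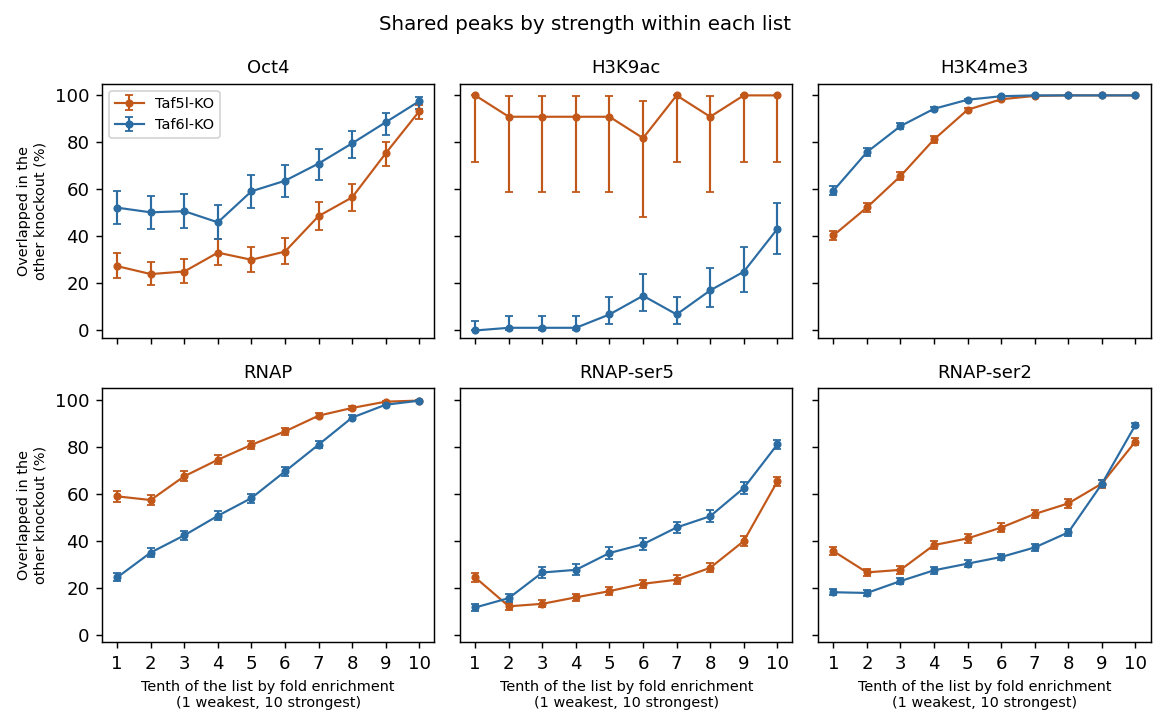
Percent of peaks overlapped in the other knockout (vertical) in 10 equal groups of each list ordered by fold enrichment (horizontal, weakest at the left) for 6 antibodies, with exact 95% binomial intervals. H3K4me3 and RNAP reach nearly 100% in both knockouts, RNAP-ser5 ends at 65.4% and 81.2%, and H3K9ac of Taf6l-KO at 43.2%.

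Shared peaks were also wider by median, with 1 exception, the Myc list of Taf5l-KO, where the median width was 76 bp for shared peaks and 87 bp for the others. Among peaks whose −log10 q reached 5, in lists both held to it, the shared ones were the narrower also for H3K9ac and RNAP-ser5 of Taf6l-KO, with a median of 0.934 and 0.698 of that of the others. The contrast was largest for H3K4me3. There the median shared peak spanned 966 bp in Taf5l-KO and 872 bp in Taf6l-KO, against 278 bp and 225 bp for peaks of 1 knockout only. The Oct4 lists were split at the median of strength and of width. The wider peaks were then shared more often in each strength group, and the stronger peaks in each width group. Over the 10 groups by strength, median Oct4 width changed little among the weaker peaks and rose among the stronger ones. In Taf5l-KO it was 140 bp in group 1, the weakest, 145.5 bp in group 5 and 239 bp in group 10. In Taf6l-KO these widths were 140, 143 and 222 bp. A wider peak is more easily overlapped by 1 bp. The part of each alone was not tested. Among Oct4 peaks of Taf5l-KO that were below the list's median in strength, 42.3% of the wider and 21.8% of the narrower ones were shared. Among those above the median strength, these shares were 72.7% and 36.5%. This did not hold in every list: among the weaker H3K9ac peaks of Taf6l-KO 1.27% of the wider and 2.96% of the narrower ones were shared, and among the weaker RNAP-ser5 peaks of Taf5l-KO 17.8% and 16.5%.

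**Figure D3:**
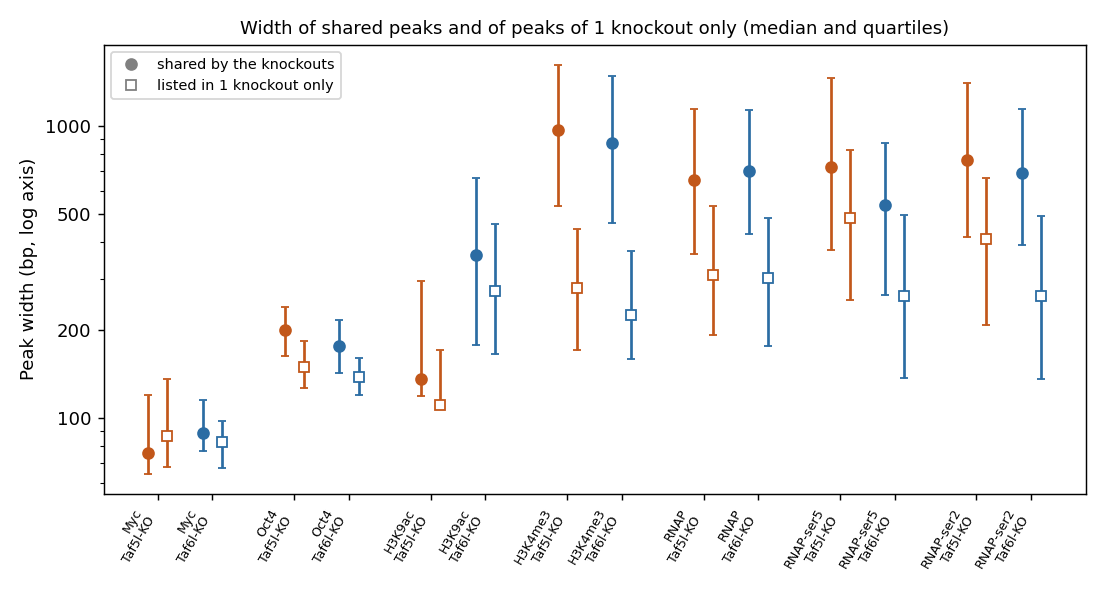
Median peak width in bp (log axis) with the lower and upper quartile for peaks shared by the knockouts (filled circles) and peaks of 1 knockout only (open squares) in each of the 14 lists. The H3K4me3 pairs lie farthest apart, at 966 against 278 bp in Taf5l-KO and 872 against 225 bp in Taf6l-KO.

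For Oct4 the list of Taf5l-KO held 2957 peaks and that of Taf6l-KO 2008, with nearly equal unique tags (7068955 and 6628480). Of the Taf5l-KO peaks 1322 were shared (44.7%, 42.9 to 46.5) and 1635 were in that knockout only. Of the Taf6l-KO peaks 1323 were shared (65.9%, 63.8 to 68.0) and 685 were not. Strong Oct4 sites were nearly all common. In the strongest 10% the share was 93.2% (89.8 to 95.8) for Taf5l-KO and 97.5% (94.3 to 99.2) for Taf6l-KO, against 27.4% and 52.2% in the weakest 10%.

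The Oct4 regions that ranked best in both knockouts at once were on chromosomes 3, 2 and 8. The peak at chr3:121848268-121848681 was first of the Taf5l-KO list with 66.4-fold enrichment and second of the Taf6l-KO list with 39.9-fold. The peak at chr2:51927653-51927894 ranked 3 with 42.5-fold in Taf5l-KO and 1 with 41.4-fold in Taf6l-KO, and it lay on H3K4me3 and RNAP peaks of both knockouts. At chr8:60211683-60211940 the enrichment was 37.1-fold in Taf5l-KO and 39.6-fold in Taf6l-KO, with no peak of another antibody. The strongest Oct4 peak of Taf5l-KO only was at chr2:26298451-26298698. It ranked 38 of 2957 with 24.6-fold enrichment, and RNAP and RNAP-ser2 peaks were listed there in Taf5l-KO and not in Taf6l-KO. Next came chr2:45014095-45014289 at 19.5-fold and chr2:106517751-106517931 at 17.7-fold, neither with a peak of another antibody in either knockout. In Taf6l-KO only, the strongest was chr10:6012924-6013187. It ranked 94 of 2008 with 16.9-fold enrichment, on RNAP and RNAP-ser2 peaks of both knockouts. The next were chr7:50863419-50863604 with 16.3-fold and chr10:7332107-7332315 with 15.8-fold.

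Between Oct4 peaks that matched 1 to 1 (1316 pairs), the ranks of fold enrichment correlated with a Spearman rho of 0.37. Of the strongest 132 pair members in each knockout, 56 were among the strongest in both. The Taf6l-KO peak was the wider in 36.02% of the pairs. Few Oct4 peaks lay on H3K4me3, and sharing hardly differed there. Of Taf5l-KO peaks, 48.9% (43.2 to 54.6) were shared on an H3K4me3 peak of either knockout and 44.2% (42.3 to 46.1) away from one. Of Taf6l-KO peaks, these shares were 60.6% (54.2 to 66.7) and 66.6% (64.4 to 68.8). Total polymerase was listed in the same knockout at 30.9% of the shared and 23.9% of the other Oct4 peaks of Taf5l-KO. In Taf6l-KO these shares were closer, 28.1% (25.7 to 30.6) and 25.4% (22.2 to 28.8), with overlapping intervals.

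The Myc lists were short, with 32 peaks in Taf5l-KO and 22 in Taf6l-KO, and 11653920 and 8843637 unique tags. The fragment size modelled for them was 51 bp and 50 bp, about the 50 bp of a tag, against 104 bp to 158 bp in the other 12 libraries. A run of peaks within chr3:123072307-123088750 held 12 of the 32 and 11 of the 22 peaks, and every peak in it was shared. It was picked after looking at the values. It also supplied the 3 best ranked shared peaks. At chr3:123077668-123077801 the enrichment was 15.5-fold in Taf5l-KO and 33.2-fold in Taf6l-KO. Only 1 peak of the run, in each knockout, overlapped H3K4me3 or RNAP.

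Outside the run the Myc lists shared little. Of 20 Taf5l-KO peaks 3 were shared (15.0%, 3.21 to 37.9), and of 11 Taf6l-KO peaks 3 (27.3%, 6.02 to 61.0). The shared places were chr1:135027571-135027854, chr11:57916229-57916372 and chr9:78328789-78328864. Their enrichment in Taf5l-KO was 11.8-fold, 5.59-fold and 9.86-fold, and that of their partners in Taf6l-KO was 6.53-fold, 6.64-fold and 14.2-fold. All 3 lay on RNAP peaks of the same knockout in both. The Taf5l-KO peaks outside the run sat mostly at promoter marks, 18 of 20 on H3K4me3 and 18 of 20 on RNAP of that knockout. In Taf6l-KO 6 of 11 sat on H3K4me3 and 8 of 11 on RNAP. The strongest Myc peak of Taf5l-KO only was chr19:53881194-53881584 with 13.7-fold enrichment. It was followed by chr11:69025050-69025248 with 10.9-fold and chr17:17511278-17511463 with 9.73-fold. In Taf6l-KO only, they were chr11:98564614-98564667 with 11.3-fold, chr7:36056545-36056645 with 7.80-fold and chr4:140255577-140255665 with 7.22-fold.

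**Figure D4:**
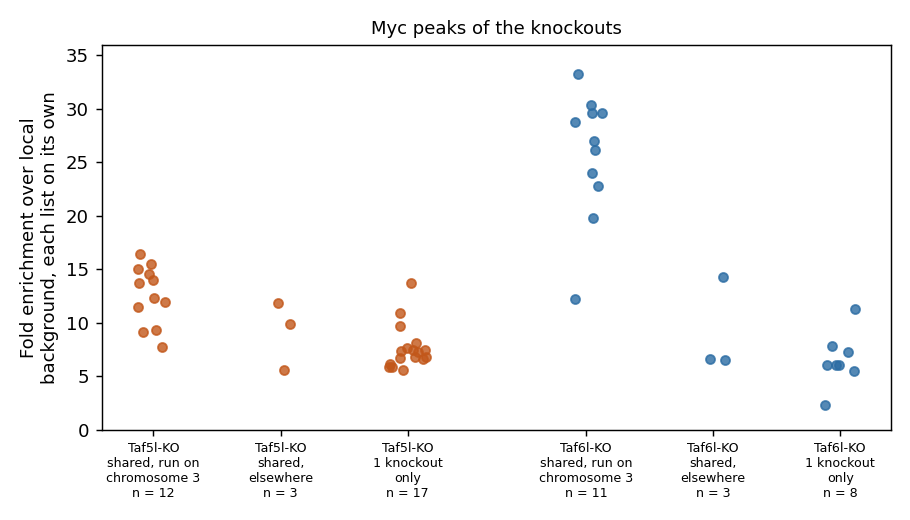
Fold enrichment over local background (vertical) of every Myc peak on chromosomes 1 to 19, split by knockout and by whether the peak was shared in the run on chromosome 3, shared elsewhere or listed in 1 knockout only. Each list stands on its own scale. The run holds 12 of 32 and 11 of 22 peaks, and 3 peaks per list are shared outside it.

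H3K9ac was the mark with the largest difference in list length. The Taf5l-KO list held 110 peaks over 0.0251 Mb and the Taf6l-KO list 880 peaks over 0.322 Mb, a covered length 12.8 times as large. At a −log10 q of at least 10 the lists held 1 and 43 peaks. The median peak spanned 135 bp and 275.5 bp. The Taf6l-KO library was the smaller, with 18739413 unique tags against 22968606. Both were scaled down to their inputs for calling, with a ratio of 0.948 in Taf6l-KO over Taf5l-KO. Of the Taf5l-KO peaks 103 were shared (93.6%, 87.3 to 97.4) and 7 were not. Of the Taf6l-KO peaks 103 were shared (11.7%, 9.65 to 14.01) and 777 were not. The shared peaks matched 1 to 1, and the Taf6l-KO peak was the wider in 99 of the 103 pairs (median 362 bp against 136 bp).

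The H3K9ac peaks of Taf6l-KO only lay at places where Taf5l-KO had H3K4me3 and polymerase peaks as well. Of the 777, 772 (99.4%) overlapped an H3K4me3 peak of Taf5l-KO and 750 (96.5%) an RNAP peak of Taf5l-KO. Over all 880 peaks of the list these counts were 872 and 847, so the unshared peaks were near the rate of the whole list. In Taf6l-KO itself the counts for the 777 were 775 and 758. The H3K4me3 peaks under them were among the strong ones. Of the 777, 47.4% lay on the strongest 10% of the H3K4me3 list of Taf5l-KO and 59.5% on that of Taf6l-KO. For the 103 shared peaks these shares were 67.0% and 61.2%. Seen from the other side, 425 of the 3070 H3K4me3 peaks in the strongest 10% of Taf5l-KO carried an H3K9ac peak of Taf6l-KO (13.8%, 12.6 to 15.1) and 72 carried one of Taf5l-KO (2.35%, 1.84 to 2.94). Among the weakest 10% these counts were 3 and 0 of 3071, where a count of 0 allows a share of up to 0.0977%. The H3K9ac lists, with 110 and 880 peaks, were too short to reach most of the strongest H3K4me3 peaks. An absence of H3K9ac there cannot be read from these counts.

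With ranks taken relative to list length, the best shared H3K9ac region was chr11:101519365-101519516, which ranked 2 of 110 and 20 of 880. It had 9.12-fold enrichment in Taf5l-KO and 9.88-fold in Taf6l-KO, on some of the strongest polymerase peaks of both lists. At chr1:78485492-78485639 the enrichment was 8.83-fold in Taf5l-KO and 10.6-fold in Taf6l-KO, and the peak was 148 bp wide in the first and 724 bp in the second. At chr8:87549261-87549367 it was 8.83-fold and 10.6-fold. The strongest H3K9ac peaks of Taf6l-KO only were chr2:5872204-5872388 with 12.0-fold, chr2:91550762-91550944 with 11.5-fold and chr10:79896513-79896695 with 10.6-fold enrichment. They ranked 4, 6 and 10 of 880, and each lay on H3K4me3 and RNAP peaks of both knockouts. The widest was chr7:3217890-3219588 with 1699 bp, and peaks of H3K4me3 and of all 3 polymerase antibodies were listed there in both knockouts. Of the 7 peaks of Taf5l-KO only, the strongest was chr11:87275609-87275719 with 7.30-fold enrichment, and the widest, chr17:36025028-36025241, spanned 214 bp.

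In windows of 100 kb, Taf6l-KO covered more sequence with H3K9ac in 798 of the 807 windows that held any. This count follows from the far longer list and wider shared peaks of Taf6l-KO given above and adds no separate evidence. The window with the largest excess was chr13:23600001-23700000, with 7 peaks over 2647 bp in Taf6l-KO and none in Taf5l-KO. H3K4me3 covered 29557 bp of that window in Taf5l-KO and 28240 bp in Taf6l-KO, and RNAP 21812 bp and 20450 bp. The largest excess in the other direction was 479 bp against 271 bp, in chr9:66700001-66800000.

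The H3K4me3 lists were largely common to both knockouts. Taf5l-KO had 30701 peaks over 32.3 Mb and Taf6l-KO 28093 peaks over 28.5 Mb, with 8886529 and 13041135 unique tags. Of the Taf5l-KO peaks 25531 were shared (83.2%, 82.7 to 83.6), and of the Taf6l-KO peaks 25686 (91.4%, 91.1 to 91.8). Every one of the strongest 10000 peaks by q value of each list was shared. Over 25103 pairs that matched 1 to 1, Spearman's rho was 0.87 for fold enrichment and 0.91 for width. The Taf5l-KO peak was mostly the wider, with Taf6l-KO wider in 35.4% (34.8 to 36.01) of the pairs.

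H3K4me3 peaks of 1 knockout only were weak, narrow and mostly without polymerase. The strongest of the 5170 in Taf5l-KO, chr4:133205750-133206105, ranked 10520 of 30701 with 8.08-fold enrichment. The strongest of the 2407 in Taf6l-KO, chr4:22617957-22618127, ranked 11538 of 28093 with 7.62-fold. Neither place had a peak of another antibody. The next in Taf5l-KO only, chr4:118815065-118815278 and chr6:136765219-136765514, lay on RNAP-ser5 peaks of that knockout, the first also on RNAP-ser2. The next in Taf6l-KO only, chr5:38698960-38699197 and chr10:49555677-49555931, had no peak of another antibody. RNAP of the same knockout was listed at 51.7% of the shared and 8.67% of the other H3K4me3 peaks of Taf5l-KO, and at 61.9% and 19.4% in Taf6l-KO. The best ranked shared peak, chr2:71049705-71050772, had 18.8-fold enrichment in Taf5l-KO and 21.2-fold in Taf6l-KO. Next were chr1:167571373-167573502 with 18.6-fold and 20.5-fold, and chr1:190830410-190831756 with 18.4-fold and 22.8-fold. By covered length the largest difference was in chr12:87800001-87900000, with 28970 bp in Taf5l-KO and 16574 bp in Taf6l-KO. In that window RNAP covered 42804 bp and 29591 bp, and RNAP-ser5 42675 bp and 9578 bp. The largest excess of Taf6l-KO was in chr5:120100001-120200000, with 16566 bp against 11712 bp.

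Total polymerase had more peaks in Taf6l-KO, 25589 over 19.2 Mb, than in Taf5l-KO, 19758 over 17.7 Mb. The Taf6l-KO library held fewer unique tags, 7236644 against 15865460. Both were scaled down to their inputs for calling, where the ratio of Taf6l-KO over Taf5l-KO was 0.948. Of the Taf5l-KO peaks 16125 were shared (81.6%, 81.1 to 82.2) and 3633 were not. Of the Taf6l-KO peaks 16706 were shared (65.3%, 64.7 to 65.9) and 8883 were not. Strong polymerase peaks were in both lists, with 99.8% of the strongest 10% shared in each. Over 14875 pairs the Spearman rho of fold enrichment was 0.58, and the Taf6l-KO peak was the wider in 57.1%.

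The best ranked RNAP region, on chromosome 4, was also the best ranked shared region of both phosphorylated forms. At chr4:51825277-51825578 the enrichment was 20.1-fold for RNAP in Taf5l-KO and 44.5-fold in Taf6l-KO. The same place had RNAP-ser5 at 28.7-fold and 26.4-fold, and RNAP-ser2 at 36.1-fold and 51.9-fold, without H3K4me3 in either knockout. At chr11:101502596-101503925 RNAP enrichment was 18.9-fold and 26.0-fold, and at chr12:55830312-55831843 18.5-fold and 27.5-fold. The strongest RNAP peak of Taf5l-KO only was chr8:126530292-126531648, 1357 bp wide. It ranked 572 of 19758 with 10.5-fold enrichment. At that place Taf5l-KO also had H3K4me3 at 4.23-fold and RNAP-ser5 at 7.91-fold, and Taf6l-KO listed neither. RNAP-ser2 was listed in both, at 10.4-fold with rank 73 in Taf5l-KO and at 4.72-fold with rank 7308 in Taf6l-KO. The next peaks of Taf5l-KO only were chr1:7303665-7303918 with 8.76-fold, on Oct4 peaks of both knockouts, and chr16:56116254-56116504 with 8.52-fold. In Taf6l-KO only, the strongest were chr14:61494321-61494730 with 9.88-fold, chr1:79855018-79855267 with 9.68-fold and chr10:103330093-103330569 with 9.57-fold. Each of these 3 lay on H3K4me3 peaks of both knockouts.

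For RNAP-ser5 the Taf5l-KO list had 21493 peaks over 20.05 Mb from 8807133 unique tags, and Taf6l-KO 15873 peaks over 7.69 Mb from 1702363. The covered length in Taf6l-KO was 0.384 of that in Taf5l-KO. Peaks with a −log10 q of at least 5 were the more numerous in Taf6l-KO, 2151 against 1329, but at a −log10 q of at least 10 they were again fewer, 156 against 273. When both lists were held to the threshold of 5, 24.5% of the Taf5l-KO and 15.6% of the Taf6l-KO peaks were shared. Of the Taf5l-KO peaks 5697 were shared (26.5%, 25.9 to 27.1), and of the Taf6l-KO peaks 6291 (39.6%, 38.9 to 40.4). Even in the strongest 10% 65.4% (63.4 to 67.5) and 81.2% (79.2 to 83.1) were shared. Over 5235 pairs that matched 1 to 1, Spearman's rho of fold enrichment was -0.16, the only negative one of the 7 antibodies. The part that the shallow Taf6l-KO library had in these differences was not tested.

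Some RNAP-ser5 peaks of Taf5l-KO only were near the top of their list. The strongest, chr3:96361762-96362461, ranked 45 of 21493 with 13.2-fold enrichment. In Taf6l-KO that place was listed for H3K9ac, H3K4me3, RNAP and RNAP-ser2. The next, chr7:28271820-28272108 with 12.2-fold and chr4:116883296-116883761 with 10.9-fold, also lay on RNAP and RNAP-ser2 peaks of both knockouts. The widest spanned 11450 bp, at chr17:56690164-56701613. In Taf6l-KO only, the strongest was chr6:44680984-44681328 with 9.58-fold and rank 55 of 15873. It was followed by chr4:91567131-91567573 with 9.24-fold and chr10:115961925-115962255 with 8.85-fold, and the last of these had no peak of another antibody. The best shared place was that of total polymerase on chromosome 4. Another, chr11:87236166-87236800, had 21.9-fold enrichment in Taf5l-KO and 29.8-fold in Taf6l-KO.

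The window with the largest RNAP-ser5 excess of Taf5l-KO was chr19:4700001-4800000, with 54792 bp against 4888 bp. RNAP covered 37402 bp and 30230 bp of it, and RNAP-ser2 49484 bp and 32749 bp. The largest excess of Taf6l-KO was in chr9:3000001-3100000, with 34769 bp against none. That window also held the largest excess of RNAP-ser2, 12843 bp in Taf6l-KO against none. No RNAP, H3K4me3 or H3K9ac peak of either knockout was in it. The widest RNAP-ser5 peak of Taf6l-KO only, chr9:3027098-3038266, lay there with 1.93-fold enrichment, which ranked 15872 of 15873.

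RNAP-ser2 had 30423 peaks over 26.4 Mb in Taf5l-KO and 40620 peaks over 24.0 Mb in Taf6l-KO, from 5390622 and 3842867 unique tags. Taf6l-KO thus had more and shorter peaks, with a median of 395 bp against 541 bp. At a −log10 q of at least 5 its covered length was the larger, 1.77 times that of Taf5l-KO, against 0.911 times in the whole lists. When both lists were held to it, 65.7% of the Taf5l-KO and 19.01% of the Taf6l-KO peaks were shared. Of the Taf5l-KO peaks 14315 were shared (47.1%, 46.5 to 47.6), and of the Taf6l-KO peaks 15672 (38.6%, 38.1 to 39.1). In the strongest 10% 82.4% (81.0 to 83.8) and 89.4% (88.4 to 90.4) were shared. Over 12464 pairs the Spearman rho of fold enrichment was 0.29. The strongest peaks of Taf5l-KO only were chr5:31856459-31856779 with 8.23-fold, chr17:33030912-33031178 with 8.04-fold and chr15:25681177-25681351 with 7.67-fold. In Taf6l-KO only, they were chr6:116192064-116192416 with 12.2-fold, chr11:90446255-90446546 with 10.6-fold and chr3:57835494-57835788 with 9.95-fold. The window with the largest excess of Taf5l-KO was chr1:183800001-183900000, with 48552 bp against 23085 bp. RNAP covered 17545 bp and 15422 bp of that window.

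Polymerase peaks were shared more often where H3K4me3, the promoter mark, was listed in either knockout than away from it. For RNAP in Taf5l-KO, 92.6% (92.1 to 93.0) were shared on such a peak and 52.8% (51.4 to 54.1) away from one. In Taf6l-KO these shares were 77.3% (76.7 to 77.9) and 40.3% (39.2 to 41.3). The RNAP-ser5 shares were 56.1% (55.0 to 57.2) and 7.54% (7.09 to 8.01) in Taf5l-KO, and 60.7% (59.6 to 61.8) and 19.4% (18.5 to 20.2) in Taf6l-KO. For RNAP-ser2 they were 84.5% (83.8 to 85.2) and 27.4% (26.8 to 28.1) in Taf5l-KO, and 61.7% (60.9 to 62.5) and 25.6% (25.1 to 26.1) in Taf6l-KO. Peaks on H3K4me3 were also the stronger ones in each of the 6 polymerase lists, and no comparison at matched strength was made. In Taf5l-KO, for example, the median RNAP enrichment was 5.28-fold on H3K4me3 and 4.07-fold away from it.

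**Figure D5:**
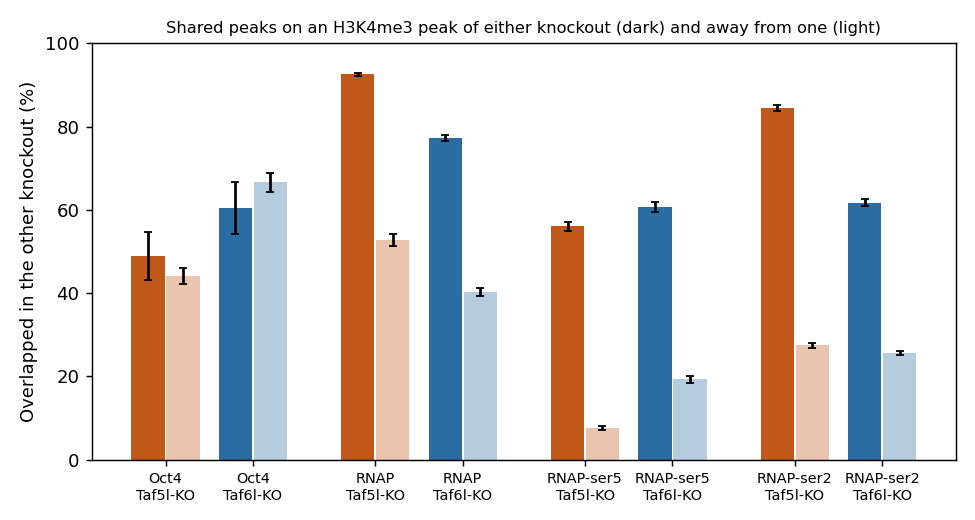
Percent of peaks overlapped in the other knockout (vertical, with exact 95% binomial intervals) for peaks on an H3K4me3 peak of either knockout (dark) and for peaks away from one (light), for Oct4 and the 3 polymerase antibodies in each knockout. In all 6 polymerase lists the dark bar is the higher, from 56.1% against 7.54% for RNAP-ser5 in Taf5l-KO to 92.6% against 52.8% for RNAP. The Oct4 bars lie between 44.2% and 66.6%.

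The polymerase peaks of 1 knockout only were partly at peaks of another antibody. Of the 15796 RNAP-ser5 peaks of Taf5l-KO only, 50.1% overlapped RNAP-ser2 and 34.4% RNAP of the same knockout, and in Taf6l-KO 42.4% lay on an RNAP-ser2 peak and 33.7% on an RNAP peak. The shared RNAP-ser5 peaks of Taf5l-KO overlapped them more often, 94.2% RNAP-ser2 and 90.1% RNAP of the same knockout. Of the 9582 RNAP-ser5 peaks of Taf6l-KO only, 38.8% overlapped RNAP-ser2 and 29.0% RNAP of the same knockout, against 93.4% and 90.02% of the shared ones. Of the 3633 RNAP peaks of Taf5l-KO only, 42.9% overlapped RNAP-ser5 of Taf5l-KO and 2.92% RNAP-ser5 of Taf6l-KO. For the 16125 shared RNAP peaks of Taf5l-KO these shares were 57.4% and 38.7%. The 8883 RNAP peaks of Taf6l-KO only overlapped RNAP-ser5 of Taf6l-KO in 19.4% and RNAP-ser5 of Taf5l-KO in 19.5%. For the shared RNAP peaks of Taf6l-KO these shares were 37.7% and 58.1%. The RNAP-ser5 list of Taf6l-KO came from the shallowest library, and the part of depth in these shares was not tested. The lists of a knockout share their input, as stated above.

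When all peaks of the 14 lists were joined wherever they overlapped, they formed 85825 loci. At 30205 of them 1 antibody was listed in Taf5l-KO only, and at 34476 1 antibody was listed in Taf6l-KO only. How many loci had peaks of 4 or more antibodies at all is not given here, and the Myc and H3K9ac lists were short. The counts that follow are therefore no rate among loci that could reach 4. No locus had more than 4 antibodies listed in 1 knockout only, and 4 were reached at 25 loci for Taf5l-KO and 18 for Taf6l-KO. The first of these for Taf5l-KO by summed rank was chr2:179954726-179955393. It had H3K4me3 at 4.29-fold, RNAP at 4.93-fold, RNAP-ser5 at 5.39-fold and RNAP-ser2 at 3.97-fold in Taf5l-KO and no peak in Taf6l-KO. The others named by the rule were chr12:112075192-112076237 and chr7:21807692-21808302. For Taf6l-KO the first was chr1:95186294-95186527. It had Oct4 at 9.14-fold, RNAP at 4.06-fold, RNAP-ser5 at 6.52-fold and RNAP-ser2 at 4.92-fold and no peak in Taf5l-KO. The others were chr16:7952343-7952618 and chr13:8901340-8902048, both with H3K4me3 and all 3 polymerase antibodies.

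The proteins themselves were mapped in the series with Flag-Biotin (FB) tagged TAF5L and TAF6L in otherwise wild-type J1 cells, which gave 136 TAF5L-FB and 1621 TAF6L-FB regions on chromosomes 1 to 19. TAF6L-FB regions lay more often at shared peaks than at peaks of 1 knockout only for Oct4, H3K4me3 and each polymerase antibody. For Oct4 the overlap was 10.9% (9.26 to 12.7) of the shared and 5.81% (4.73 to 7.06) of the other peaks in Taf5l-KO. In Taf6l-KO it was 10.7% (9.12 to 12.5) and 6.57% (4.83 to 8.69). For H3K4me3 it was 3.37% (3.15 to 3.60) and 0.580% (0.392 to 0.827) in Taf5l-KO, and 3.325% (3.11 to 3.55) and 2.24% (1.69 to 2.92) in Taf6l-KO. For RNAP it was 5.58% (5.23 to 5.94) and 2.06% (1.63 to 2.58) in Taf5l-KO, and 5.38% (5.04 to 5.73) and 1.01% (0.816 to 1.24) in Taf6l-KO. The shared peaks were the stronger and wider ones, and the part of strength and width in these shares was not tested. Of the 777 H3K9ac peaks of Taf6l-KO only, 60 overlapped a TAF6L-FB region (7.72%, 5.94 to 9.83) and 2 a TAF5L-FB region. This was near the rate of the whole list, 72 of 880 for TAF6L-FB (8.18%), and 12 of the 103 shared peaks overlapped one (11.7%, 6.17 to 19.5).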

How the data were processed

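The authors made a separate peak list for each of the 14 libraries. The submitters' processing notes name mm9, Bowtie2 2.3.2, deepTools 2.5.3 and MACS2 2.1.1.20160309. Per the file headers, the peak caller was MACS2 with a q-value cutoff of 0.05, a limit of 1 tag per position and tags of 50 bp. The 5 antibodies other than Myc and Oct4 were called with broad linking (second cutoff 0.1), per the file headers. The deposited lists give, for each peak, a pileup signal, a fold enrichment (a ratio), and −log10 p and −log10 q. Lists of TAF5L-FB and TAF6L-FB (4) and BirA were used for overlaps only. TAF regions were joined over the lines of a protein, and those on a BirA peak were removed.

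Overlaps, ranks and exact intervals were computed with Python 3.11.15, numpy, pandas and scipy, and the overlap steps were tested on simulated lists. Named regions were selected as follows: per antibody, the 3 shared regions with the best worse rank (rank divided by list length), the 3 strongest and (broad antibodies) the widest peaks of each knockout only, the 100 kb windows of largest excess, and 3 loci per direction. A region on chromosome 18 is left unnamed, as are some widest peaks and the RNAP windows. So are further Myc regions of the run on chromosome 3 and the next strongest H3K9ac peaks of Taf5l-KO only. The antibodies, regions and lists were chosen with earlier results of these data known. Gene lists were not used, since the gene tables at hand refer to another build.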

Additional observations from a re-analysis of the deposited data

Results flagged for a closer look

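Peaks on chromosome X were left out of the comparison above and were listed in 11 of the 14 lists in more than the 3 counts that a count of 0 allows. RNAP-ser5 was the antibody whose direction differed there. Its Taf5l-KO list had 681 peaks on chromosome X and its Taf6l-KO list 1110, a ratio of 1.63, against 0.739 on chromosomes 1 to 19. This difference was not tested. RNAP-ser2 had 1135 and 1797 peaks there, and RNAP 815 and 1128. H3K4me3 had 1376 and 1355, of which 91.6% and 93.1% were shared. Oct4 had 77 and 41 peaks. H3K9ac had 18 peaks in Taf6l-KO and none in Taf5l-KO.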

How the results depend on the processing

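Each library stands alone, so depth, antibody efficiency and knockout cannot be told apart, and leaving out a library was not possible. No paired analysis was possible because there was 1 library per antibody and knockout and no replicate number. Of 266 alternative values, 157 did not count as changed. A share counted as changed when it left the 95% interval of the reported share, and a ratio when it moved by over 1.5 times or crossed 1. By these measures 102 moved and 7 reversed direction, and the cause was not tested. Short lists have wide intervals, so these counts do not rank stability. The Myc share of Taf5l-KO counted as unchanged at 65.0% against 46.9%, with both lists held to a −log10 q of at least 5. The RNAP share of Taf6l-KO counted as changed at 66.1% against 65.3%, with peaks less than 1000 bp apart merged. Leaving out the Myc run on chromosome 3, ranking by −log10 q and removing the chromosome 9 window were chosen after seeing the data. Removing BirA peaks or the chromosome 9 window changed none of the values recomputed, and adding chromosome X changed 1. The low depth of RNAP-ser5 in Taf6l-KO limits every statement on that antibody.

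When both lists were held to a −log10 q of 5 or more, the Taf5l-KO share was 86.3% for H3K4me3, 86.6% for RNAP, 24.5% for RNAP-ser5 and 65.7% for RNAP-ser2. In Taf6l-KO it was 85.7% for Myc, 94.8% for H3K4me3, 59.4% for RNAP, 15.6% for RNAP-ser5 and 19.01% for RNAP-ser2. With that threshold on the list asked about and the other list whole, the Taf5l-KO share was 70.0% for Myc, 51.9% for Oct4, 98.8% for H3K4me3, 98.7% for RNAP, 76.15% for RNAP-ser5 and 94.45% for RNAP-ser2. That of Taf6l-KO was 85.7% for Myc, 70.2% for Oct4, 32.3% for H3K9ac, 99.7% for H3K4me3, 93.3% for RNAP, 76.4% for RNAP-ser5 and 89.1% for RNAP-ser2. With 50% of a peak covered, the Taf5l-KO share was 41.7% for Oct4, 77.1% for H3K4me3, 71.3% for RNAP, 15.4% for RNAP-ser5 and 31.5% for RNAP-ser2. The share of Taf6l-KO was 7.16% for H3K9ac, 88.05% for H3K4me3, 55.4% for RNAP, 32.4% for RNAP-ser5 and 29.1% for RNAP-ser2. With chromosome X added, the Taf5l-KO share was 27.3% for RNAP-ser5. With peaks less than 1000 bp apart merged, the Taf5l-KO share was 84.1% for H3K4me3, 83.8% for RNAP, 30.4% for RNAP-ser5 and 48.8% for RNAP-ser2. In Taf6l-KO it was 66.1% for RNAP. Without the run on chromosome 3, the Taf5l-KO share was 15.0% for Myc. That of Taf6l-KO was 27.3% for Myc. With lists of equal length, the Taf5l-KO share was 56.3% for Oct4, 42.7% for H3K9ac, 87.75% for H3K4me3, 74.7% for RNAP, 33.7% for RNAP-ser5 and 42.2% for RNAP-ser2. The share of Taf6l-KO was 56.4% for Oct4, 42.7% for H3K9ac, 88.4% for H3K4me3, 76.0% for RNAP, 37.4% for RNAP-ser5 and 45.4% for RNAP-ser2. Among the strongest 1000 peaks, the Taf5l-KO share was 72.7% for Oct4, 100% for H3K4me3, 99.9% for RNAP, 76.8% for RNAP-ser5 and 92.3% for RNAP-ser2. In Taf6l-KO it was 79.9% for Oct4, 100% for H3K4me3, 100% for RNAP, 85.1% for RNAP-ser5 and 96.9% for RNAP-ser2. Within 1000 bp, the Taf5l-KO share was 84.4% for H3K4me3, 86.6% for RNAP, 30.5% for RNAP-ser5 and 60.1% for RNAP-ser2. That of Taf6l-KO was 92.1% for H3K4me3, 69.9% for RNAP, 43.2% for RNAP-ser5 and 49.0% for RNAP-ser2.

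At a −log10 q of at least 5, the ratio of peak number in Taf6l-KO over Taf5l-KO was 1.62 for RNAP-ser5 (0.571 at a threshold of 10) and 3.56 for RNAP-ser2. At a threshold of 10, the ratio of peak number in Taf6l-KO over Taf5l-KO was 1.08 for Myc, 43.0 for H3K9ac and 4.38 for RNAP-ser2. At the threshold of 5, the ratio of covered sequence in Taf6l-KO over Taf5l-KO was 0.586 for RNAP-ser5 and 1.77 for RNAP-ser2. At a threshold of 10, the ratio of covered sequence in Taf6l-KO over Taf5l-KO was 73.3 for H3K9ac, 0.208 for RNAP-ser5 and 1.62 for RNAP-ser2. Under the threshold of 5 the median width of shared peaks over Taf5l-KO-only peaks was 0.409 for Myc and 2.21 for H3K4me3. For Taf6l-KO-only peaks it was 0.934 for H3K9ac, 1.502 for RNAP, 0.698 for RNAP-ser5 and 1.32 for RNAP-ser2. With peaks merged, the median width of shared peaks over Taf5l-KO-only peaks was 2.103 for Myc.

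With strength taken from −log10 q, the strongest 10% of Taf5l-KO was shared in 70.8% for RNAP-ser5 and 89.0% for RNAP-ser2. In Taf6l-KO it was shared in 90.8% for RNAP-ser2. With H3K4me3 peaks of a −log10 q of at least 5 only, the share of Taf5l-KO-only peaks on H3K4me3 was 5.93% for Oct4, 18.8% for RNAP, 19.1% for RNAP-ser5 and 6.88% for RNAP-ser2. With H3K4me3 peaks of a −log10 q of at least 5 only, the share of Taf6l-KO-only peaks on H3K4me3 was 8.61% for Oct4, 99.0% for H3K9ac, 28.7% for RNAP, 24.4% for RNAP-ser5 and 15.8% for RNAP-ser2. With peaks within 1000 bp counted, the share of Taf5l-KO-only peaks on H3K4me3 was 100% for Myc, 15.0% for Oct4, 32.65% for RNAP, 26.5% for RNAP-ser5 and 14.2% for RNAP-ser2. With peaks within 1000 bp counted, the share of Taf6l-KO-only peaks on H3K4me3 was 22.5% for Oct4, 100% for H3K9ac, 46.5% for RNAP, 33.8% for RNAP-ser5 and 24.7% for RNAP-ser2.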

Other observations

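The RNAP-ser5 lists also differed unevenly between the other chromosomes. Taf6l-KO had 0.53 times the peaks of Taf5l-KO on chromosome 11 and 1.03 times on chromosome 14, against 0.739 times over chromosomes 1 to 19. On chromosome 14, 69.6% of the RNAP-ser5 peaks of Taf6l-KO were listed in that knockout only, and on chromosome 11 45.8%. H3K4me3 was even by comparison. The share of its Taf5l-KO peaks found in that knockout only ran from 14.6% on chromosome 6 to 19.6% on chromosome 18. For Oct4 it ran from 47.6% on chromosome 1 to 62.6% on chromosome 5.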
